A study of Capra hircus with 2 samples.

Results

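The shortest small RNA sequences of the goat mammary gland, those of 18 and 19 nucleotides (nt), were examined in 2 libraries. A tag is a distinct sequence with the number of reads that carried it, and every tag of 18 or 19 nt was taken. They numbered 41007 distinct tags with 526074 reads among 305711 tags and 18031615 reads in early lactation, and 39353 distinct tags with 421243 reads among 259250 tags and 7385833 reads in early involution. Together they made 72051 distinct tags, of which 8309 were in both libraries and held 92.02% of the short reads of lactation and 88.2% of those of involution. The early lactation library came from dairy goats on day 10 after parturition. The early involution library came from dairy goats on day 5 after forced weaning in late lactation, on day 218 after parturition. RNA of 5 goats was pooled in equal amounts for each library, and the labels name no breed and no treatment other than the weaning. Weaning and the 218 days since parturition cannot be told apart, and 1 library per stage gives no spread between animals. All intervals below are 95% intervals for counting error only, and no test between the stages was possible.

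A microRNA (miRNA) is cut from a hairpin precursor by the nucleases Drosha and Dicer, and one strand is loaded into an Argonaute protein, which holds the 5' end of the miRNA in one pocket and its 3' end in another. The bases after the first one at the 5' end, called the seed, pair with target messenger RNAs, so a tag that lacks more than the first base lacks part of the seed. Exonucleases can trim the 3' end and nucleotidyl transferases can add A or U to it, and such length variants are called isomiRs. Pieces of ribosomal RNA (rRNA) and transfer RNA (tRNA) of similar size also enter small RNA libraries. In the mammary gland, involution is the phase after milk removal stops, in which secretory cells are lost and the gland is remodelled.

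The results turn mainly on tags of miR-143 and of the let-7 family. Names are those of conserved vertebrate RNAs, given by recognition of the sequence, and were not matched to a goat catalogue. Each line shows, 5' to 3', a longer tag with the stretch held by a short tag in capitals. They are shown because short tags from base 1, counted from the 5' end of the longer tag, lack 3' bases, whereas those from a later base lack 5' bases.
miR-143, 19 nt from base 1: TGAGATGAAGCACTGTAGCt
miR-143, 18 nt from base 1: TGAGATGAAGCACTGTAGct
miR-143, 19 nt from base 4: tgaGATGAAGCACTGTAGCTCT
miR-143, 18 nt from base 4: tgaGATGAAGCACTGTAGCTCt
let-7a, 19 nt from base 1: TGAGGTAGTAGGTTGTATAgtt
let-7a, 18 nt from base 4: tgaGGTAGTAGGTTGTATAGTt
let-7b, 19 nt from base 1: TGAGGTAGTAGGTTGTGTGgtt
let-7b, 19 nt from base 4: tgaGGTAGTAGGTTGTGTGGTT
miR-30a-5p, 19 nt from base 1: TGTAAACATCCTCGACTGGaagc
miR-103, 19 nt from base 5: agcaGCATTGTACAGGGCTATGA
miR-146b, 19 nt from base 6: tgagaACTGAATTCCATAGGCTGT
miR-7, 18 nt from base 7: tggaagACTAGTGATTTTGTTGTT
The seed of miR-143 and of the let-7 members is at bases 2 to 8, so the tags from base 4 begin inside it.

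Tags of 18 and 19 nt took a larger share of the involution library. They made up 2.92% of clean tags in lactation (2.91 to 2.93%) and 5.70% in involution (5.69 to 5.72%), a ratio of involution to lactation of 1.955 (1.947 to 1.963). At 18 nt the share was 0.904% in lactation and 2.09% in involution, a ratio of 2.31, and at 19 nt it was 2.01% and 3.62%, a ratio of 1.80. The excess was larger at 18 than at 19 nt, smaller at 20 nt (1.39) and below 1 at 22 nt (0.803), and it returned at 25 nt (1.83). Distinct tags of 18 and 19 nt made up 13.4% of all distinct tags in lactation and 15.2% in involution, so the number of sequences differed less than the number of reads. The lower size limit of the clean tags lies at 18 nt. In the deposited filtering logs, reads under 18 nt were 0.920% of high-quality reads in lactation and 4.14% in involution, reads without an insert 0.945% and 7.73%, and reads removed as 5' adaptor contaminants 0.0505% and 14.03%. The part of these differences in the shares of short tags was not tested.

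**Figure D1:**
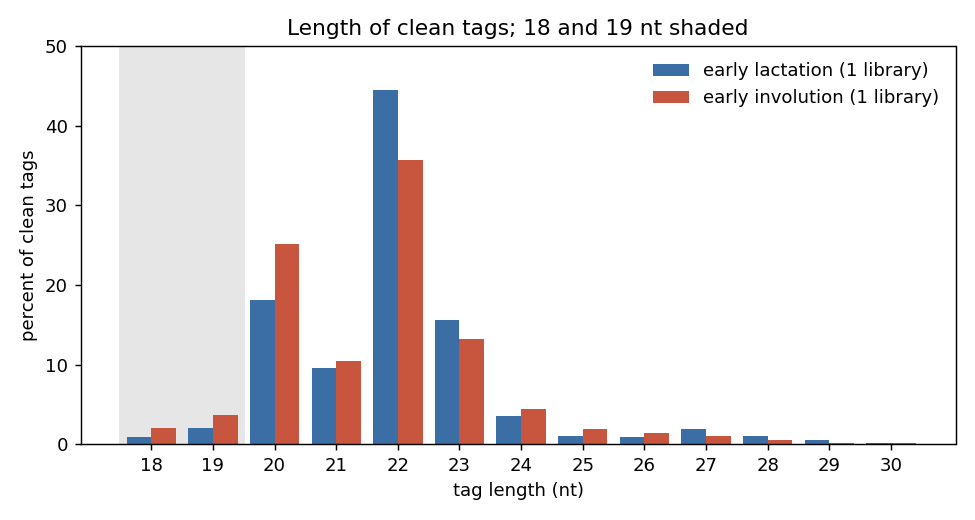
Percent of clean tags (vertical axis) by tag length in nt (horizontal axis) in the early lactation and the early involution library, 1 pooled library each; the shaded band marks 18 and 19 nt. At both shaded lengths the involution bar is the higher one (2.09% against 0.904% at 18 nt, 3.62% against 2.01% at 19 nt), and at 22 nt it is the lower one.

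Each short tag was compared with the tags of 20 to 25 nt of its own library. Tags that begin a longer tag, and so could be its 3' shortened form, held 92.1% of the short reads in lactation (92.04 to 92.19%) and 89.4% in involution (89.3 to 89.5%). Tags that lie inside a longer tag but not at its start held 2.32% in lactation and 3.20% in involution. Tags contained in no longer tag held 5.56% and 7.38%. By level, in tags per 1000000 clean tags (TPM), the classes stood at 26874, 678 and 1623 in lactation and at 51000.5, 1823 and 4210.4 in involution. Their ratios were 1.90 (1.89 to 1.91) for the tags that begin a longer tag, 2.69 (2.63 to 2.76) for those inside one and 2.59 (2.55 to 2.64) for those not contained. All 3 classes were thus higher in the involution library, the first one by least.

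Counted as distinct sequences, the tags not contained came first. Only 30.7% of the distinct short tags in lactation and 30.99% in involution begin a longer tag, 12.8% and 11.9% lie inside one, and 56.4% and 57.1% were not contained. The tags not contained were mostly single reads: 86.1% of them in lactation and 72.8% in involution had 1 read, and they had 1.26 and 1.38 reads per tag against 38.5 and 30.9 for tags that begin a longer tag. For comparison, 20 nt tags set against tags of 21 to 25 nt began a longer tag in 99.3% of reads in lactation and 98.7% in involution, and were not contained in 0.515% and 0.994%.

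**Figure D2:**
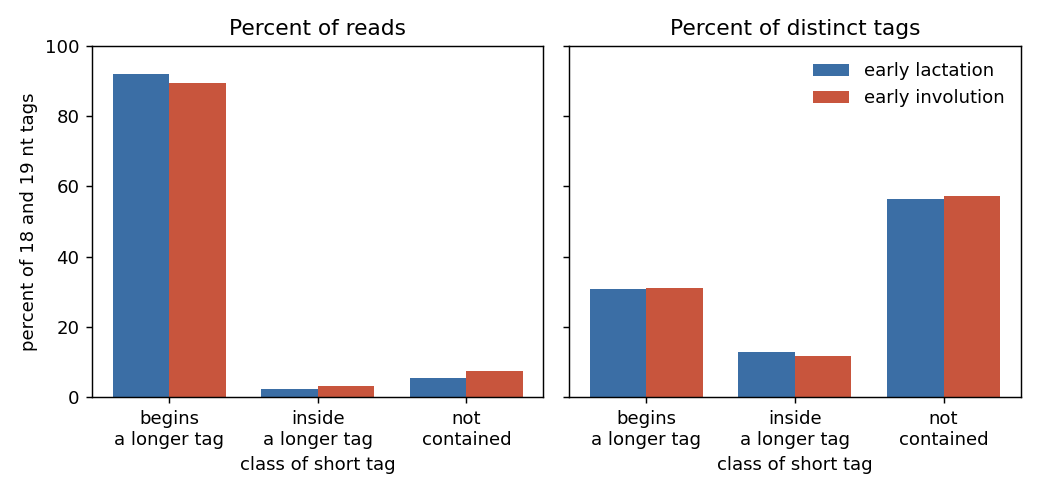
Percent of the reads (left panel) and of the distinct tags (right panel) of 18 and 19 nt in each of 3 classes, in the early lactation and the early involution library. Tags that begin a longer tag take most reads (92.1% and 89.4%), whereas tags not contained take most distinct sequences (56.4% and 57.1%).

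The class that begins a longer tag does not hold 3' shortened forms alone. In 30.4% of its reads in lactation and 52.0% in involution, the short tag had more reads than any longer tag it begins. The 19 nt tag of miR-143 from base 4 is such a case: 2129 longer reads in lactation and 4568 in involution start at the same base, while the abundant tag that holds it, with 1746969 reads in lactation and 466854 in involution, starts 3 bases earlier. Tags of this kind, inside a longer tag at least as abundant as themselves, made up 17.04% of the reads of the class in lactation and 36.2% in involution. When the longer tag was required to have at least as many reads as the short one, the share inside a longer tag was 17.2% in lactation and 34.6% in involution, and the share that begins one 64.1% and 43.0%. Positions were therefore also measured against source RNAs.

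A source was built around each abundant tag of 20 to 25 nt, the lead tag, which reached 10 TPM in a library, together with the longer tags that overlap it. Of 453 sources, 109 were named as miRNAs and 18 more as 3' variants of miRNAs, 94 as rRNA pieces and 31 as tRNA pieces. miRNA sources held 46.3% of the short reads in lactation and 47.9% in involution. rRNA sources held 30.0% and 24.3%, tRNA sources 2.46% and 1.69%, and unnamed sources 2.959% and 4.004%. Reads placed on no source made up 13.2% and 15.8%. In the tags of 20 to 25 nt, by contrast, miRNA sources held 88.4% of reads in lactation and 82.6% in involution, and rRNA sources 4.41% and 7.03%. A short tag was thus far more often an rRNA piece than a longer tag was, in both libraries.

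The kinds of RNA differed in whether their short tags followed their longer ones. Short miRNA tags stood at 13520 TPM in lactation and 27328 in involution, 2.02-fold higher (2.01 to 2.03), whereas the 20 to 25 nt tags of the same sources were at a ratio of 0.921. Short tags therefore made up 1.63% of the 18 to 25 nt tags of miRNA sources in lactation and 3.51% in involution. For rRNA the ratio was 1.58 for short tags (1.57 to 1.59) and 1.57 for longer ones (1.56 to 1.57), and the short share 17.7% and 17.8%. For tRNA it was 1.34 (1.30 to 1.38) and 1.37 (1.34 to 1.39), and the short share 27.1% and 26.7%. In rRNA and tRNA the short share was thus about the same in both libraries, and in miRNAs it was the higher in involution. Unnamed sources moved likewise: their short tags were at 2.65 (2.59 to 2.70) and their longer ones at 1.59, and the short share was 6.01% and 9.61%.

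By source, 216 had short tags at 10 TPM or more in a library. A source counted as higher from a ratio of 2 upwards and as lower from 0.5 downwards, provided that its whole interval lay beyond 1. By this rule 90 of 216 were higher in involution (41.7%) and 3 lower (1.39%). In the tags of 20 to 25 nt of the same sources, 53 of 174 were higher (30.5%) and 5 lower (2.87%). Among single distinct tags, 44.2% of 504 short ones were higher and 2.78% lower, against 32.4% and 9.27% of 2944 tags of 20 to 25 nt. The median ratio of short tags over the 216 sources was 1.70, or 0.76 on the log2 scale, and scaling to that median left 43 higher and 25 lower. Many sources reached the level only through the involution library. Among the 157 sources with 10 TPM in lactation, 39 were higher and 3 lower, and the median ratio was 1.34.

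Counts by kind stood beside that background, and they too include sources that reached 10 TPM in involution alone. That favours a high ratio in the counts, the medians and the comparisons with longer tags, and its extent was not counted by kind. Of 59 miRNA sources, 34 were higher and 2 lower, with a median ratio of 2.74 against 1.22 for their longer tags. In 34 of the 54 miRNA sources with longer tags the short ratio lay above the longer one with intervals apart, and in 9 below. Of 98 rRNA sources or sets of overlapping sources, 26 were higher and 0 lower, with a median of 1.42. The same comparison put 25 of 73 rRNA sources above their longer tags and 16 below. Of 17 tRNA sources, 7 were higher and 0 lower, with a median of 1.75. Of 36 unnamed sources, 20 were higher and 1 lower, with a median of 2.70. No replicate was available to set these counts against the spread between libraries of 1 stage.

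**Figure D3:**
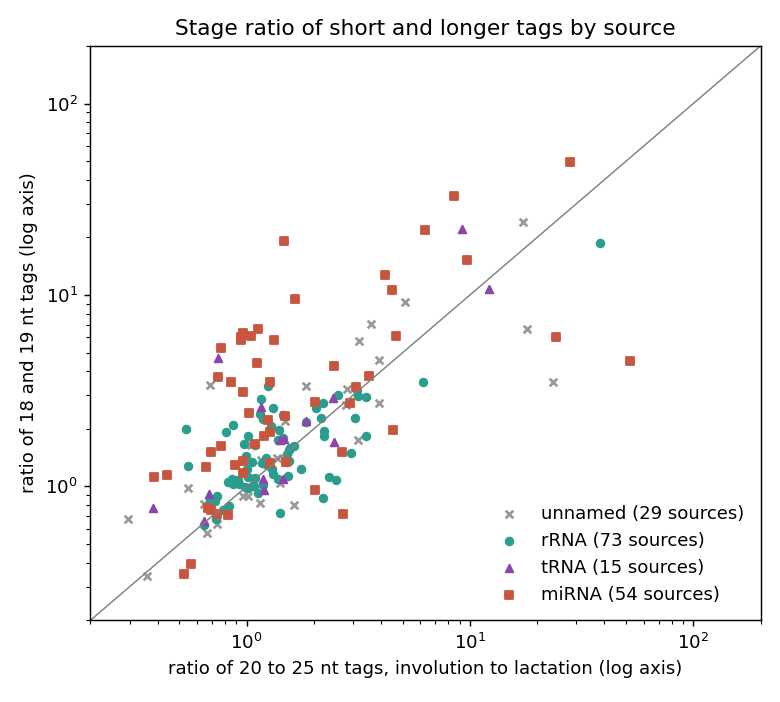
Involution to lactation ratio of the 18 and 19 nt tags (vertical log axis) against that of the 20 to 25 nt tags (horizontal log axis), 1 point per source with 10 TPM of short tags in a library and longer tags in lactation. The 73 rRNA points (0.632 to 18.7 on the vertical axis) lie around the diagonal, and many of the 54 miRNA points (0.348 to 49.4) lie above it at horizontal values near 1. Points that reached 10 TPM in involution alone are included, which favours a high vertical value.

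Where a short miRNA tag starts separated the libraries more than how many there were. Of the short reads on miRNA sources, 86.7% in lactation (86.6 to 86.9%) and 54.7% in involution (54.4 to 54.9%) started at the first base of the lead tag. Tags that started later held 13.02% (12.88 to 13.15%) and 45.19% (44.98 to 45.41%). In level, tags from the first base stood at 11728 TPM in lactation and 14938 in involution, 1.27-fold higher (1.26 to 1.28), and tags from a later base at 1759.9 and 12351 TPM, 7.02-fold higher (6.93 to 7.11). In the 20 to 25 nt tags of the same sources, the ratio was 0.915 from the first base and 1.09 from a later base. The difference by start was thus seen in the short tags far more than in the longer ones.

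miR-143 held most of these reads, but the other miRNAs summed together gave similar values. Without miR-143, short tags from the first base stood at 4357.5 TPM in lactation and 4552 in involution, a ratio of 1.05 (1.03 to 1.06), and those from a later base at 378 and 2323 TPM, a ratio of 6.15 (5.98 to 6.32). Of these later-start reads, let-7a held 2762 of 6815 in lactation and 8762 of 17157 in involution. let-7f held 508 and 1524 and let-7b 522 and 1324, so the summed values rest largely on the let-7 family. By position, the ratio without miR-143 was 1.14 for tags from base 2 and 2.83 from base 3, and then 7.78 from base 4 (7.502 to 8.064), 6.47 from base 5, 9.73 from base 6 and 30.5 from base 7 (21.5 to 44.7). The value from base 7 rests on 34 reads in lactation and 425 in involution, of which 1 miR-7 tag held 30 and 371. For miR-143 the ratio was 1.20 from base 2, 4.42 from base 3, 7.72 from base 4 (7.60 to 7.85), 11.5 from base 5 and 6.59 from base 6. Base 4 was the commonest later start: it held 12.0004% of the short miR-143 reads in lactation and 39.75% in involution, and 4.55% and 24.4% of those of the other miRNAs. The geometry limits these starts, since an 18 or 19 nt tag in a miRNA of 22 nt can start no later than base 4 or 5. Of the later-start reads, 90.8% in lactation and 93.2% in involution ran to the last base of the lead tag or beyond, while the short tags from the first base by construction stopped short of it. For miR-143, whose lead tag is 20 nt long, these shares were 99.6% and 99.9%, and for the other miRNAs 58.5% and 64.1%, so many later-start tags of the others lacked bases at both ends. The miR-143 tags shown above include longer ones than the lead, and the 18 nt tag from base 4 lacks the last base of the longer tag that holds it. The share of 5' adaptor contaminants given above moved in the same direction as the later starts, and its part in them was not tested.

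**Figure D4:**
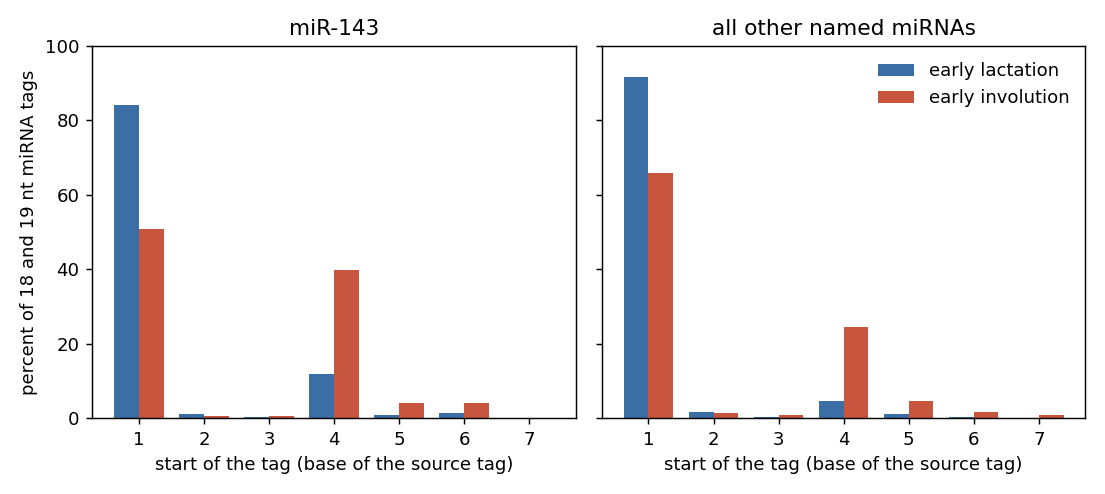
Percent of the 18 and 19 nt reads on miRNA sources (vertical axis) by the base of the lead tag at which the tag starts (horizontal axis, base 1 is the 5' end), for miR-143 with its 3' variants (left) and all other named miRNAs (right). In both panels the involution bar is lower at base 1 and higher at base 4, where it reaches 39.7% and 24.4%.

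miR-143, known from stromal cells and vessel walls, was the largest source of short tags. Its 20 to 25 nt tags took 306008 TPM in lactation and 312651 in involution, a ratio of 1.02. The short tags stood at 7817 and 18834 TPM, 2.41-fold higher (2.39 to 2.43), and made up 2.49% of its 18 to 25 nt tags in lactation and 5.68% in involution. The 19 nt tag from base 1 had 5038 TPM in lactation and 6886 in involution, a ratio of 1.37 (1.35 to 1.38). The 19 nt tag from base 4 had 778 and 6139 TPM, 7.89-fold higher (7.74 to 8.04), and the 18 nt tag from base 4 had 273 and 1977 TPM, 7.23-fold higher (7.003 to 7.472). In lactation the tag from base 1 was thus the more abundant of the 19 nt tags by far, and in involution both stood within the same range.

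The 3' end of the short miR-143 tags differed less by stage. At 19 nt from base 1, the base of the lead tag is C. Tags that end in A there, which only rarer longer tags hold, stood at 783 TPM in lactation and 1432 in involution, a ratio of 1.83 (1.78 to 1.88). Tags ending in T at the same place stood at 150.01 and 264 TPM, a ratio of 1.76 (1.66 to 1.87). At 18 nt, tags ending in A were at 35.8 and 26.7 TPM, a ratio of 0.746 (0.632 to 0.876). The ratio of a changed last base was thus above that of the matching base (1.37) at 19 nt and below it (1.38) at 18 nt. By the source rule, a source led by a longer tag with A at this place had the highest short share of all sources with 1000 reads in both libraries. The share was 94.2% in lactation and 96.1% in involution, beside 880 and 432 longer reads. Another longer tag that begins with the same 19 nt tag had 7723 and 5658 reads. That tag was set aside as a variant of miR-143 and not counted, so the share is overstated. Over all sources, short tags that fitted a source except for their last base stood at 502 and 2084 TPM, 4.15-fold higher (4.05 to 4.26). Among them, the tag of miR-143 from base 4 that ends in G had 72.0 TPM in lactation and 650.2 in involution, 9.03-fold higher. It is an exact stretch of a longer miR-143 tag with the same end, which had 645254 reads in lactation and 180470 in involution. Its last base thus differs only from the 3' end taken for the source, and its ratio is also that of a start at base 4.

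The let-7 family, miRNAs abundant in differentiated tissue, differed by member, length and start. Its members share long stretches, so a read can belong to a paralog, and a tag that fits more than 1 member was kept apart. Short let-7a tags stood at 351 TPM in lactation and 1857 in involution, 5.29-fold higher (5.14 to 5.46), and short let-7f tags at 134 and 777 TPM, 5.798-fold higher (5.528 to 6.083), while their 20 to 25 nt tags were at ratios of 0.769 and 0.947. Tags from a later base had 10 TPM in lactation in 4 members, and all 4 were higher in involution: 7.74-fold for let-7a, 7.32-fold for let-7f, 6.19-fold for let-7b and 5.90-fold for let-7i. Those of let-7g, at a ratio of 7.03, and let-7c, at 2.49, reached 10 TPM in involution alone. Tags from the first base were not uniform. The 18 nt tag that fits both let-7a and let-7c had 319 TPM in lactation and 312 in involution, a ratio of 0.978 (0.931 to 1.03), and the 18 nt tag of let-7b 76.1 and 71.4 TPM, a ratio of 0.938 (0.847 to 1.04).

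At 19 nt from the first base, members whose tag ends in A stood apart from those whose tag ends in G. The let-7a tag had 198 TPM in lactation and 671 in involution, 3.39-fold higher (3.25 to 3.55), and the let-7f tag 43.4 and 493 TPM, 11.4-fold higher (10.5 to 12.3). The tags of let-7g and let-7d, which also end in A, were 8.95-fold and 13.4-fold higher. They had 7.32 and 1.55 TPM in lactation against 65.5 and 20.9 in involution, and so reached 10 TPM in involution alone. The let-7b tag, which ends in G, had 238 and 266 TPM, a ratio of 1.12 (1.06 to 1.18), and the let-7c tag, which ends in G too, had 94.4 and 98.3 TPM, a ratio of 1.04 (0.953 to 1.14). Over all miRNAs the medians for A and G stood in the same order. The median ratio was 4.08 for 11 tags ending in A, 2.57 for 16 ending in G, 1.03 for 4 ending in C and 5.84 for 7 ending in T. These medians include tags that reached 10 TPM in involution alone, which favours a high ratio. Of the tags ending in T, only miR-181a, miR-148a and miR-21 had 10 TPM in lactation, at ratios of 0.361, 0.913 and 1.89.

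Of the miRNA sources with short tags from the first base, 50 reached 10 TPM in a library, and 28 of them were higher and 2 lower, with a median ratio of 2.51. From a later base 19 reached it, and 17 were higher and 0 lower, with a median of 6.53. Counting only those with 10 TPM in lactation, 9 of 30 were higher and 2 lower from the first base (median 1.36), and 6 of 8 higher and 0 lower from a later base (median 6.05). In 15 miRNAs both kinds of tag reached the level. The ratio from a later base was the larger in 13 of them, in 12 with intervals apart. In 8 of the 15 the later-start tags reached the level through involution alone, which favours a high ratio. In the other 7 the later-base ratio was the larger in 5, with intervals apart, and the smaller in 2. It was the smaller in miR-103, at 5.53 against 17.8, and in miR-126-3p, a miRNA of endothelial cells, at 0.937 against 3.98. The first-base tags of these 2 had 1.16 and 3.16 TPM in lactation and reached the level through involution alone. In the 5 with the larger later-base ratio, both kinds of tag had 10 TPM in lactation.

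**Figure D5:**
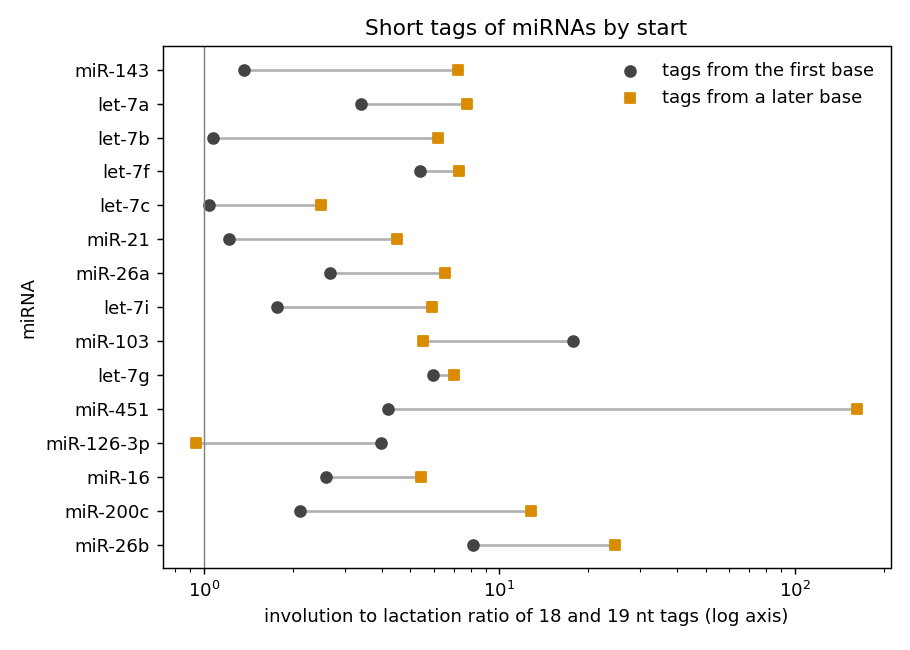
Involution to lactation ratio (log axis) of 18 and 19 nt tags from the first base and from a later base of the lead tag, for the 15 miRNAs in which both kinds reached 10 TPM in a library. The later-base ratio is the larger in 13, and miR-103 and miR-126-3p show the opposite order.

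The most abundant later-start tag of each of the 19 miRNAs was also examined. It started at bases 4 to 7 in 17 of them, and the 16 of these with reads in both libraries had ratios of 3.31 to 167. Only 6 of the 17 had 10 TPM in lactation, and those 6 were at least 2-fold higher in involution, whereas the others were chosen through their involution level. The let-7a tag from base 4 shown above had 63.2 TPM in lactation and 556 in involution, 8.79-fold higher (8.23 to 9.39), and the let-7b tag 17.9 and 149 TPM, 8.35-fold higher (7.37 to 9.48). The miR-103 tag from base 5 had 20.24 and 103.3 TPM, 5.103-fold higher (4.499 to 5.797). The miR-146b tag from base 6 had 2.44 and 34.3 TPM, 14.04-fold higher (10.2 to 19.8), and the miR-7 tag from base 7 had 1.66 and 50.2 TPM, 30.2-fold higher (20.8 to 45.4). The largest ratio, 167 for miR-26a, rested on 2 reads in lactation against 137 in involution (45.4 to 1395), and miR-451, a miRNA of red blood cells, had 0 and 93 reads. The remaining 2 tags started at base 2 and were not higher: miR-126-3p stood at a ratio of 0.944 (0.656 to 1.34) and miR-192 at 0.681 (0.531 to 0.866).

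The first bases of the short tags moved with the starts. Of all 18 and 19 nt reads, 54.002% in lactation and 39.54% in involution began with T, and 14.97% and 29.04% with G. Among those on miRNA sources, T began 85.6% in lactation and 56.3% in involution, and G 10.9% and 37.5%. Base 4 is G in the miR-143 and let-7 tags shown above, and 10 of the 17 leading later-start tags from bases 4 to 7 began with G.

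Few miRNAs had lower short tags in involution. miR-30a-5p was the second largest miRNA source of short tags in lactation, and its short tags stood at 2335 TPM in lactation and 812 in involution, a ratio of 0.348 (0.338 to 0.357), against 0.524 for its longer tags. Almost all of it was the 19 nt tag from base 1, with 2319 and 797 TPM, while its 18 nt tag from base 1 had 6.88 and 5.82 TPM, a ratio of 0.847 (0.584 to 1.21). miR-181a short tags stood at 189 and 74.2 TPM, a ratio of 0.392 (0.358 to 0.429), against 0.562 for longer ones. miR-30e-5p, a relative of miR-30a-5p, was at 0.709 (0.654 to 0.768) against 0.822. In all 3 the short ratio lay below the longer one, and none had 10 TPM of later-start tags in either library.

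Short rRNA tags came from pieces of the RNAs of both ribosomal subunits. Those of 18S rRNA, the RNA of the small subunit, stood at 3029 TPM in lactation and 5374 in involution, a ratio of 1.77 against 1.78 for the 20 to 25 nt tags. For 28S rRNA, of the large subunit, the ratios were 1.4999 and 1.5655. For 5S rRNA they were 1.93 (1.87 to 2.002) and 1.56, and for 5.8S rRNA, the one kind that was lower, 0.865 (0.8301 to 0.9003) and 0.643. The 28S and 18S pieces differed among themselves. The tags shown next are from 2 of the 3 most abundant 28S pieces, which differed in ratio.
28S rRNA fragment 1, 19 nt from base 1: AAACGAGAACTTTGAAGGCc
28S rRNA fragment 1, 18 nt from base 2: aAACGAGAACTTTGAAGGCc
28S rRNA fragment 3, 19 nt from base 1: CGCGACCTCAGATCAGACGt
Short tags of 28S fragment 1 stood at 533 TPM in lactation and 1521 in involution, 2.86-fold higher (2.78 to 2.94), against 1.16 for its longer tags. Its 19 nt tag from base 1 was 4.99-fold higher and its 18 nt tag from base 2 was 6.32-fold higher. Short tags of 28S fragment 3 stood at 536 and 339 TPM, a ratio of 0.632 (0.605 to 0.661), against 0.648. Between these lay 28S fragment 2 at 1.34, 18S fragment 1 at 1.82, 5S fragment 1 at 1.97 and 18S fragment 2 at 2.56. Tags that fit more than 1 overlapping source were kept as sets. A pair of such 18S sets was 13.9-fold and 6.67-fold higher, and a 5.8S set stood at 0.586. The first 18S set had 7.27 TPM in lactation and 101 in involution, and so reached 10 TPM in involution alone. The second had 25.5 and 170 TPM.

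tRNAs, which carry amino acids to the ribosome, gave the highest short shares among named sources other than miR-143 variants. Short tags made up 57.2% of the 18 to 25 nt tags of tRNA-Glu fragment 1 in lactation and 54.99% in involution, 54.96% and 45.6% for tRNA-Val, and 47.1% and 40.3% for tRNA-Ser. Their short ratios were 1.09 (1.03 to 1.14), 1.70 (1.55 to 1.86) and 1.10 (0.996 to 1.21). In involution the short share of 28S fragment 1, 45.4%, lay above that of tRNA-Ser. In tRNA-Gln the short share was 10.1% in lactation and 32.9% in involution, and in tRNA-Gly 19.7% and 33.2%. At the other end, no short tag fitted miR-1 or miR-196b alone. Those shared by miR-1 and its 3' variant had 23.2 TPM in lactation and 28.8 in involution, and those shared by miR-196b and its variant had 5 reads and 0. A mature tRNA ends in CCA, and tags with that end made up 0.783% of all short reads in lactation and 1.38% in involution, but 14.4% and 13.2% of those inside a longer tag.

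Of the most abundant tags inside a longer tag, those in involution were largely late starts of miRNAs, namely of miR-143, miR-7 and miR-146b. The miR-143 tags differ from the 3' end taken for the source, but longer miR-143 tags with the same end hold them. These longer tags had 71684 and 51932 reads in lactation and 17159 and 12762 in involution. A miR-143 tag from base 6 of this kind had 9.59 TPM in lactation and 77.2 in involution, 8.04-fold higher (6.77 to 9.59). In lactation the leading one, with a CCA end, had 274 reads there and 142 in involution, a ratio of 1.27 (1.03 to 1.56). An unnamed source stood out among the short tags with the highest ratios, at 38.2 TPM in lactation and 350 in involution, 9.16-fold higher (8.42 to 9.97), against 5.14 for its longer tags.

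Tags contained in no longer tag were mostly far from any. In lactation 84.2% of the distinct ones and in involution 83.4% were more than 1 mismatch from every longer tag, and 11.6% and 11.8% were 1 mismatch from the start of one. Only 2.51% of them in lactation and 3.12% in involution were also present in the other library, in any of the 3 classes. The most abundant had 1531 reads in lactation and 877 in involution, a ratio of 1.40 (1.29 to 1.52). The longer tag that holds it had 2 reads, in the involution library. The next had 14.2 TPM in lactation and 0.948 in involution, a ratio of 0.0665 (0.0265 to 0.139).

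Marker miRNAs of cell types were summed over their short tags. Epithelial markers stood at 89.5 TPM in lactation and 172.2 in involution, a ratio of 1.92 (1.79 to 2.07), against 1.24 for their longer tags. Of the 11 listed, 9 had a source, 5 reached the level and 3 were higher. Those 3, miR-200a, miR-200c and miR-375, had 5.66, 5.88 and 3.49 TPM in lactation and reached the level in involution alone. miR-141 and miR-200b, both of epithelial cells, were at 1.51 and 1.93. Stromal markers, nearly all miR-143, were at 2.42 against 1.02, and miR-145, its genomic neighbour, had 2.995 and 98.2 TPM, 32.8-fold higher (24.8 to 44.1) against 8.496. Of the other epithelial ones, miR-183 was at 0.343 and miR-182 at 0.947. Erythroid markers stood at 17.3 and 102 TPM, 5.88-fold higher against 3.37, but only miR-451 and miR-144 were higher, and miR-486 was at 0.902. miR-144 rested on 4 reads in lactation against 81 in involution, and reached the level in involution alone. Endothelial markers stood at 18.7 and 80.2 TPM, and their members differed. miR-126-5p, at 4.49 and 57.0 TPM, was 12.7-fold higher against 4.15 for its longer tags, and reached the level in involution alone. miR-126-3p was at 1.63 against 0.770. Leukocyte markers stood at 1.77 and 11.2 TPM, and none reached the level. Of the muscle markers, miR-206 had 0 and 23 short reads, and miR-133a had no source. Liver markers were at 19.8 and 14.9 TPM, and miR-122, which defines liver, had no source. In pooled tissue, a change in the number of cells of a type and in the RNA per cell cannot be told apart, and the part of cell composition in the short tags was not tested.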

How the data were processed

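Small RNA of goat mammary gland was sequenced by the submitters after size selection, per the labels' protocols. The deposited files give each clean tag with its read count, as raw counts without molecular identifiers, and a filtering log per library. Per the deposited notes, the authors first filtered reads on quality, then clipped adaptor sequence at the 3' side, took out reads contaminated with the 5' adaptor, and dropped inserts under 18 nt and polyA reads, with no mapping step named. Each log was tied to a library by its total of clean reads. For the trimming tool and genome build, the sources used here give no name. Depth was 18031615 clean reads in lactation and 7385833 in involution, so a count of 0 allows up to 0.166 and 0.406 TPM (3 reads).

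Levels are reads per 1000000 clean reads. Intervals are exact 95% intervals (Poisson, Clopper-Pearson, or conditional Clopper-Pearson for ratios), and copies made by PCR are not independent, so they cover counting error only. Short tags were matched without mismatch to tags of 20 to 25 nt. Sources were built from longer tags that reached 10 TPM, with overlap of 16 bases. As variants, 471 tags were set aside and counted towards no source. These were tags 1 mismatch from a lead tag at least 100 times more abundant. They also included tags that differed only in their last 3 bases from a lead tag at least 10 times more abundant. The rule for building sources was revised after its first output was seen. Main source ratios count every start on the source. RNA names come from general knowledge, were given after tags and levels were seen, and were not matched to reference sequences. Of 109 miRNA names, 98 match a symbol among the RefSeq genes of goat. Place on the hairpin was not analysed here.

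Named sources are the 10 with most short tags, the 5 highest and 5 lowest ratios from 100 TPM, the 5 highest and 5 lowest short shares from 1000 tags, the leading tags of each class and up to 2 members of each marker list. Other tags named were chosen after their values were seen, as were the tables by last base, by later start and by level in lactation. The members and lists were chosen with earlier results of these data known. Alternatives varied scaling, level filter, length, containment and depth. Python 3.11.15, numpy 2.4.6, scipy 1.17.1, matplotlib 3.10.9, R 4.3.3 and edgeR 4.0.16 (for its scaling factor alone) were used, and the procedure was tested on simulated data.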

Additional observations from a re-analysis of the deposited data

How the results depend on the processing

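No paired analysis was possible because each stage has 1 library. In every pair below the lactation value comes first. The share of clean tags was 0.904% and 2.09% at 18 nt, 2.01% and 3.62% at 19 nt, and 13.4% and 15.2% in distinct tags. The share that begins a longer tag was 93.1% and 90.3% with longer tags from either library, 85.03% and 78.7% with longer tags of at least 10 reads, 64.1% and 43.0% with a longer tag at least as abundant, 92.6% and 89.7% with longer tags up to 44 nt, 93.6% and 91.7% with 1 mismatch, and 30.72% and 30.99% in distinct tags. The share inside one was, in the same order but without the 44 nt limit, 1.95% and 2.89%, 5.398% and 8.49%, 17.2% and 34.6%, 1.79% and 2.17%, and 12.8% and 11.9%. The share not contained was 4.92% and 6.77%, 9.57% and 12.9%, 18.6% and 22.5%, 5.13% and 7.12% (44 nt), 4.64% and 6.155%, and 56.4% and 57.1%. Thinned to the depth of involution, the lactation shares were 90.3%, 3.36% and 6.31%.

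The 90 sources higher became 43 with median-of-ratios scaling (a shift of -0.76 on the log2 scale), 207 without a level filter, 19 from 100 TPM and 58 at 18 nt. The 3 lower became 25, 10 and, at 18 nt, 0. The short share of miRNA sources was 1.43% and 1.98% by first 18 bases, 0.325% and 0.995% at 18 nt, and 0.9255% and 1.55% without miR-143. The share of later starts was 7.94% and 33.7% without miR-143, 23.9% and 64.3% at 18 nt, 10.4% and 37.9% at 19 nt, and 13.9% and 47.9% with 1-mismatch sources kept. Among the named sources counted as higher or lower, the direction turned for miR-181a alone, at 1.47 for 18 nt tags. Others crossed 1: at 18 nt miR-30e-5p (1.98) and miR-192 (2.79), from the first base miR-192 (1.25), at 19 nt tRNA-Glu fragment 1 (0.971), and with median-of-ratios scaling 28S fragment 2 (0.793), that tRNA-Glu fragment (0.642), tRNA-Ser (0.648), miR-141 (0.889) and miR-126-3p (0.962). miR-143 stood at 1.42 with median-of-ratios scaling and 1.37 for starts within 1 base. The settings without miR-143, by length or 1-mismatch sources for later starts, and from the first base were chosen after seeing the data. The cause of these shifts was not tested.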

Other observations

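Some short tags not contained in longer ones are recognised, by general knowledge, as miRNAs of land plants, and were chosen after their values were seen. Together they had 1 read in lactation and 190 reads in involution. The tag recognised as miR168 had 1 and 140 reads, that of miR157 0 and 26, and a pair for miR167 0 and 13 at 18 nt and 0 and 11 at 19 nt. Longer tags holding them had 1 read in lactation and 0 in involution.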
